A study of Mus musculus with 18 samples.

Results

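Between postnatal days 5 (P5) and 7 (P7) the mouse liver is still giving up its fetal role in blood formation while its hepatocytes mature. The livers described here are the 6 of newborn C57BL/6J mice that were injected intraperitoneally with a scrambled microRNA mimic, 3 taken at P5 and 3 at P7. They were picked by day and treatment from the 18 libraries of the series, whose other groups are scrambled livers at P14 and livers given a miR-497a-5p mimic at P5, P7 and P14, each with 3 libraries. Injections were given at birth (P1) and on P3, after pups had been shared out among nursing dams in litters of equal size. Doses of 100 and 10 mg per kg appear in the protocol, and the label of a single library does not say which it received. The labels do not tie a library to a litter, so p-values here reflect only how these livers vary, and the scrambled livers were injected too, so no liver here is untreated. RNA came from a cube of liver tissue and was sequenced as stranded mRNA. The deposited value of a gene in a library is called its scaled count: a read count divided by a factor per library and rounded. Of 31165 genes listed, 14104 (45.3%) reached a mean of 10 across the 18 libraries and were tested.

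In the fetus the liver is the main site of blood formation, and it houses precursors of red cells, platelets, neutrophils and B cells among its hepatocytes. These cells leave for the bone marrow and spleen around birth. In the same period hepatocytes slow their division, silence fetal genes such as Afp through repressors including Zbtb20 and Zhx2, and take up bile acid synthesis, detoxification and the zoned gene use of the adult organ.

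From P5 to P7 the scrambled livers had lower values of nearly every gene in the lists of red cell, platelet, neutrophil and B cell precursors, heme synthesis and DNA replication, and higher values of most repressors of fetal genes and of Rdh16, Cyp7a1 and Ppara, but no single gene passed the test. With limma on log2(scaled count + 1) and Benjamini-Hochberg adjustment over all 14104 genes, 0 genes (0.0%) had an adjusted p under 0.05, and the smallest was 0.0570. An unadjusted p under 0.05 was found for 3265 genes (23.1%), 1596 higher at P7 (11.3%) and 1669 lower (11.8%). All 3 P7 values lay above all 3 P5 values in 1092 genes (7.74%) and below them in 1367 (9.69%). The median size of the log2 difference was 0.20, with 227 genes more than 1 higher and 88 more than 1 lower. Over all genes tested the median log2 difference was -0.0038, and 50.6% were lower at P7 and 49.4% higher.

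Some libraries stood apart. P5 scrambled replicate 1 deviated from the other 2 livers of its group by a median of 0.25 on the log2 scale, against 0.16 to 0.20 for the other 5 libraries. Without it 2342 genes passed the limma threshold after Benjamini-Hochberg adjustment (16.6%), 1239 higher at P7 (8.78%) and 1103 lower (7.82%). Of the P5 livers it lay nearest to P7, at 0.382 on the line of mimic livers described below. Without it the median size of the log2 difference was 0.26, against 0.20 with it. Leaving out any other of the 6 scrambled livers gave 0 to 8 genes. In P7 scrambled replicate 3, the level at 8686 genes that are nearly silent in the other livers was 3.08 scaled counts per kb, where P7 replicate 2 had 0.168 and the remaining 4 had 0.0260 or less. Counts of genes without overlap were taken from values with no such background subtracted. P7 scrambled replicate 1 held transcripts of skeletal muscle: its 31 listed marker genes of muscle, pancreas, gut and fat summed to 2774 scaled counts, against 508 to 1120 in the other 5, with Acta1 at 436 where they had 1 to 6. The Y-linked gene Ddx3y was at 651, 675 and 8 at P5 and at 2, 786 and 45 at P7, and Xist at 0, 6 and 1669 and then 1558, 66 and 1484, so the sexes were not balanced between the days. The giant muscle gene Ttn was at 1, 4 and 1 at P5 and 159, 14 and 301 at P7, where background alone would give 18 in replicate 2 and 329 in replicate 3 over its transcript. Fits without P7 replicates 2 and 3 leave 1 liver at P7, the one with muscle transcripts, and take it to vary like the other groups. There the median log2 difference of the muscle, pancreas, gut and fat list was 5.88, against 2.06 with every P7 liver. What the sexes contribute was not tested. Library totals ran from 3954405 to 4248257 scaled counts, and no replicates were alike enough to be 1 library deposited again.

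The hepatocyte gene list matched the tissue label, with 19 of 20 members tested and Alb between 1752 and 2886 scaled counts in each of the 6 scrambled livers. The most abundant transcripts varied together between libraries. Alb, the albumin gene, was at 1855, 2886 and 2147 at P5 and 1794, 1752 and 2192 at P7. Afp, the fetal albumin relative, was at 1832, 2719 and 2136 and then 1768, 1725 and 2191. The long noncoding RNA H19 was at 1733, 2676 and 2024 and then 1696, 1617 and 2053. In each of the 6 livers the ratio of Alb to Afp lay between 1.00 and 1.06 and that of H19 to Afp between 0.937 and 0.984, although P5 scrambled replicate 2 was higher in all 3 genes. Per base of the longest transcript, the mean levels over the 18 libraries were 1.03 scaled counts for Alb, 0.869 for Afp and 0.850 for H19, and 200 tested genes lay above 0.5, with 1.43 the highest. Apob, with the highest scaled count in these livers at 7201, had 0.341. The log2 difference from P5 to P7 was -0.25 (SE 0.14) for Alb and for H19, -0.22 (SE 0.16) for Afp and -0.09 (SE 0.12) for the growth factor gene Igf2, none past the limma threshold (adjusted p 0.275, 0.279, 0.382 and 0.674). With the slope of each library with transcript length as a covariate all 4 turned positive, between 0.06 and 0.12. Whether the deposited values keep the true order and change of the most abundant transcripts was not tested.

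On the higher side the smallest p-values belonged to a retinol enzyme and a clock-output factor, apart from Ttn. Rdh16, which oxidizes retinol (chromosome 10, 127801154 to 127815839, mm10), was at 90, 93 and 82 scaled counts at P5 and at 176, 167 and 169 at P7. The groups lay far apart with little spread, at 88.3 ± 5.69 and 171 ± 4.73 (SD, n = 3 each). Its log2 difference was 0.94 (SE 0.16), a limma adjusted p of 0.0570, and it was called in the mimic livers at 1.81. Hlf, a transcription factor whose liver transcript follows the day-night cycle (chromosome 11, 90336536 to 90390895), was at 526, 456 and 416 and then at 664, 689 and 657. The log2 difference was 0.53 (SE 0.09), again with an adjusted p of 0.0570 in limma.

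The other 8 genes on the higher side of the 20 with the smallest p include several of the cell surface, matrix and cytoskeleton. Col15a1, a basement membrane collagen, was at 49, 42 and 15 at P5 and 127, 114 and 71 at P7, a log2 difference of 1.65 (SE 0.32). In mimic livers its log2 difference was -0.23 (SE 0.32), with an adjusted p of 0.654 in limma. The unadjusted p of the difference between the 2 treatments was 0.000571 in limma, the smallest among these 20 genes. After Benjamini-Hochberg adjustment it was 0.465. The adhesion gene Sdk1 was at 44, 54 and 29 and then 81, 109 and 100, a log2 difference of 1.21. Adgrf5, an adhesion receptor of endothelium, was at 539, 470 and 394 and then 760, 638 and 650, and Pde4dip, a centrosome and Golgi protein, at 556, 439 and 444 and then 692, 863 and 677. The chromatin remodeller gene Chd3 (0.50), the phospholipase gene Plcg1 (0.53), Ankrd33b (1.04) and Tanc1 (0.52) complete the set on the log2 scale. P5 scrambled replicate 3 was the lowest of the 6 livers in 8 of these 10 genes on the higher side.

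On the lower side, 3 of the 10 genes code for surface proteins of blood cells. Ly6d, a surface protein that marks lymphoid progenitors (chromosome 15, 74762056 to 74763620), was at 118, 129 and 100 scaled counts at P5 and 55, 42 and 51 at P7. That is 116 ± 14.6 against 49.3 ± 6.66 (SD, n = 3 each). Its log2 difference came to -1.21 (SE 0.21), with an adjusted p of 0.0570 in limma, and it was -1.18 in the mimic livers, where Ly6d fell. Icam4, a red cell adhesion protein (chromosome 9, 21029373 to 21030595), was at 202, 225 and 204 and then 77, 95 and 112, a log2 difference of -1.16 (SE 0.24). From P7 to P14 it differed by another -4.26, in a comparison that shares the 3 P7 livers. Smim1, the carrier of the Vel blood group, was at 364, 315 and 350 and then 222, 220 and 239, a log2 difference of -0.59.

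The other 7 genes on the lower side have mixed roles. Dedd2, a death effector domain protein, was at 269, 277 and 266 at P5 and 155, 179 and 201 at P7, a log2 difference of -0.61. Mkrn1, a ubiquitin ligase, was at 1345, 1394 and 1368 and then 814, 857 and 1026, also -0.61. Tff3, a secreted trefoil peptide, was at 153, 218 and 238 and then 54, 72 and 79, a log2 difference of -1.55 (SE 0.33), while the mimic livers showed -0.02. The cell cycle inhibitor gene Cdkn2d (-0.73), Svip (-0.70), the secreted factor gene Ptn (-1.45) and the mitochondrial reductase gene Txnrd2 (-0.41) were the other 4. All 20 genes had an adjusted p of 0.0570 to 0.0641 in limma, and all 20 passed 0.05 without P5 scrambled replicate 1. That was the only scrambled liver whose omission alone let more than 8 genes pass. The 20 were chosen for their p and for days that do not overlap, so their separation is a description.

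**Figure D1:**
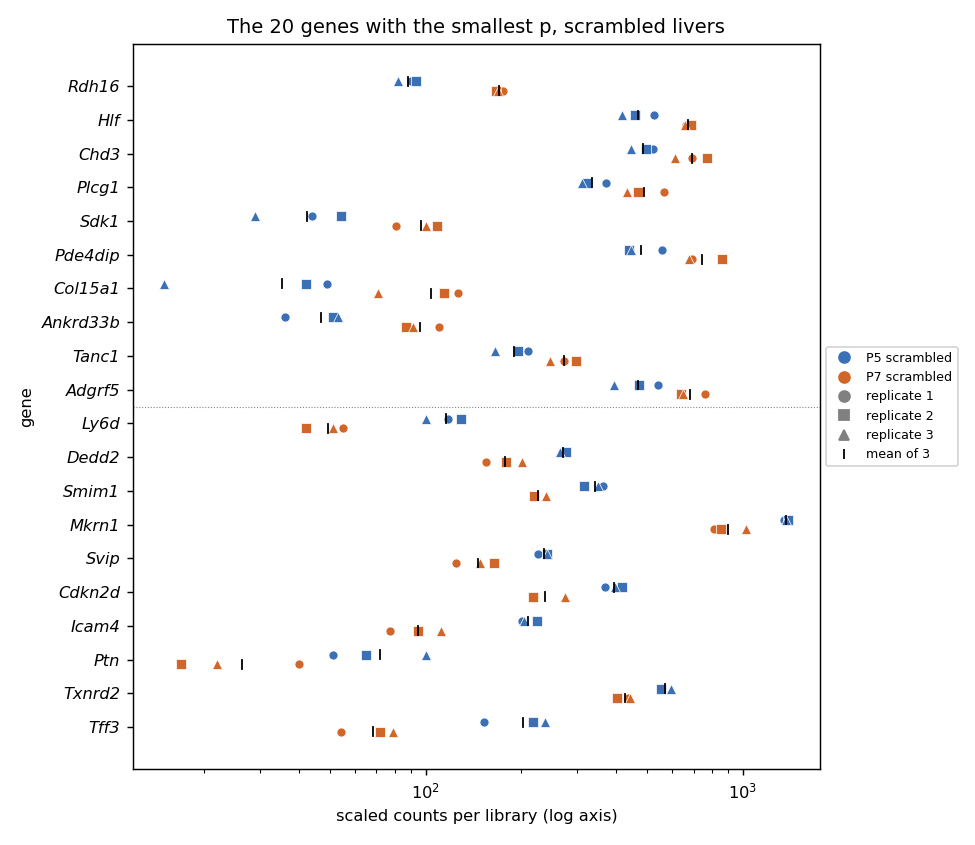
Scaled counts (log axis) of the 20 genes with the smallest p in each scrambled liver, P5 in blue and P7 in orange, with circles, squares and triangles for replicates 1, 2 and 3 and a bar at the mean of 3. By the rule that chose them the P7 values lie to the right of all P5 values in the upper 10 genes, such as Rdh16 at 167 to 176 against 82 to 93, and to the left in the lower 10.

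Genes of red cell precursors were lower at P7. All 29 tested members of a list of 30 had a log2 difference below 0, with a median of -0.49 against -0.0038 over all genes. In 17 of the 29 every P7 value lay below every P5 value (9.69% of all genes), and 12 had an unadjusted p under 0.05 on that side (11.8% of all genes). In bulk liver, fewer cells of a type and less RNA per cell cannot be told apart. The mean log2 level of the list was 9.31, 9.26 and 9.24 at P5 and 8.41, 8.82 and 9.07 at P7. Without P7 replicates 2 and 3 the median was -0.90, with all 29 lower. The 3 P7 livers lay below the P5 livers and spread more widely, with the liver that held muscle transcripts the lowest.

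Promoters of this list often held the binding word of GATA1, the transcription factor that drives red cell genes. AGATAA or TGATAA, searched on both strands, stood in 15 of 27 promoter windows of 23 list genes with a RefSeq entry (55.6%), against 1512 of 13648 windows of the genes tested (11.1%). The following pair of windows shows the word, in capitals, in the 2 listed genes with the smallest p that hold it, Epor and Alas2. They run from 250 bases before to 50 bases after the transcript start, from RefSeq on GRCm38.p6, at chr9:21963527-21963826 on the minus strand and chrX:150547167-150547466 on the plus strand. A match is a string of letters and no proof of binding.
Epor: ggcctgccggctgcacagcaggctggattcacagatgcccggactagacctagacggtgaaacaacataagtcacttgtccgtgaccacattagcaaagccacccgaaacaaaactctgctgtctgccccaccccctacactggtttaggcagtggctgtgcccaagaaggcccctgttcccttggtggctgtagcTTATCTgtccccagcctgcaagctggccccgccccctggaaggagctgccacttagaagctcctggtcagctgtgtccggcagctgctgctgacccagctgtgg
Alas2: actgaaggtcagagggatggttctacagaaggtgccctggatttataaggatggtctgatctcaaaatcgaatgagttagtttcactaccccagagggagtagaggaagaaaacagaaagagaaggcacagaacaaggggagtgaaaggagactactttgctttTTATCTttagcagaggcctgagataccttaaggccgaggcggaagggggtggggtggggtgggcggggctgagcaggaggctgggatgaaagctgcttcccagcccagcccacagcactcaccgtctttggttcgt

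Epor, the erythropoietin receptor, was at 395, 350 and 389 scaled counts at P5 and 224, 215 and 269 at P7. The 2 days did not overlap, and the log2 difference was -0.68 (SE 0.18), with an adjusted p of 0.0839 in limma, 0.0394 without P5 scrambled replicate 1 and 0.0308 in the mimic livers. Alas2, which starts heme synthesis in red cells, was at 1191, 1442 and 1277 and then 879, 919 and 1149, a log2 difference of -0.41 (SE 0.13). Tspo2 (302, 308 and 326, then 136, 155 and 215), Tmcc2 and the transcription factor gene Nfe2 had log2 differences of -0.91, -0.54 and -0.68. From P7 to P14 the list's median log2 difference was -4.11, in livers that include the same P7 libraries.

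Heme synthesis genes went the same way apart from the liver enzyme. Of 14 genes tested, 13 were lower at P7 with a median of -0.40, and 12 did not overlap between the days on that side (9.69% of all genes). Alas1, the rate-limiting enzyme of heme synthesis outside red cells, was the 1 member that was higher, at 416, 485 and 468 scaled counts at P5 and 707, 640 and 622 at P7. Its log2 difference of 0.52 (SE 0.12) had an adjusted p of 0.0641 in limma, and 0.0254 without P5 scrambled replicate 1. Against it, Ppox was at 518, 586 and 544 and then 332, 361 and 376 (-0.62), and the mitochondrial glycine carrier gene Slc25a38 at 379, 470 and 393 and then 259, 279 and 275 (-0.60). Both fell in the mimic livers, at -0.59 and -0.44. Without P5 scrambled replicate 1, 1 heme gene rose (8.78% of all genes) and 7 fell (7.82%) past the threshold.

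Platelet precursor genes were lower at P7 in the scrambled livers, with little spread among the P7 values. Of 18 genes, 17 were lower at P7 and 14 did not overlap between the days (9.69% of all genes), with a median of -0.72. The mean log2 level of the list was 7.76, 7.81 and 8.09 at P5 and 7.28, 7.14 and 7.28 at P7. Treml1, a receptor of platelet granules, was at 145, 195 and 207 and then 77, 75 and 75, a log2 difference of -1.24 (SE 0.33). Itga2b, the integrin subunit CD41, was at 523, 643 and 751 and then 367, 358 and 358 (-0.81), and Gp9 of the von Willebrand factor receptor at 150, 175 and 243 and then 95, 89 and 89 (-1.02). All 3 passed the limma threshold without P5 scrambled replicate 1.

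In the mimic livers of the same days the platelet genes lay close together. There the list had a median of -0.01, 9 of 18 genes were higher at P7, and its mean log2 level was 8.03, 7.67 and 8.16 at P5 and 7.81, 8.01 and 8.07 at P7. Treml1 was at 170, 129 and 200 in the mimic livers at P5 and 135, 168 and 181 at P7. In the test of the difference between the treatments 4 of the 18 genes had an unadjusted p under 0.05 (6.13% of all genes), among them Treml1 at 0.019 and Itga2b at 0.039, and none passed after Benjamini-Hochberg adjustment in limma. GATA words stood in 6 of 13 platelet promoter windows (46.2%).

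Neutrophil precursor genes were all lower at P7, with 20 of 20 below 0 and a median of -0.61. In 7 of the 20 the days did not overlap (9.69% of all genes). P5 scrambled replicate 2 was far above the others, and the list's mean log2 level was 8.25, 9.18 and 8.05 at P5 and 7.72, 7.81 and 8.05 at P7. Prtn3, a protease of primary granules, was at 339, 636 and 315 scaled counts and then 210, 194 and 271, and Ms4a3, a marker of granulocyte and monocyte progenitors, at 140, 304 and 156 and then 67, 76 and 108. Their log2 differences were -0.87 (SE 0.23) and -1.19 (SE 0.34). The elastase gene Elane, at 294, 480 and 197 and then 167, 177 and 238, overlapped.

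B cell precursor genes had the lowest median of the cell type lists, -0.79, with 16 of 17 tested genes below 0. Here 8 did not overlap between the days on that side (9.69% of all genes) and 10 had an unadjusted p under 0.05 (11.8%). Iglc1, an immunoglobulin light chain gene, was at 62, 78 and 71 at P5 and 42, 18 and 24 at P7, a log2 difference of -1.38 (SE 0.31). Vpreb3 of the pre-B cell was at 76, 114 and 48 and then 24, 22 and 34 (-1.48), and Cd79a, a signalling chain of the B cell receptor, at 142, 191 and 96 and then 64, 61 and 79 (-1.02). P5 scrambled replicate 3 was low in this list, at a mean log2 level of 5.49 where the other 2 P5 livers had 6.59 and 6.84 and the P7 livers 5.51 to 5.94. Both Iglc1 and the B cell surface gene Ms4a1 fell in the mimic livers, with log2 differences of -1.64 and -1.45. From P7 to P14 the list's median was -0.39.

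Lists of resident and mature immune cells had medians closer to 0. Of 14 T and NK cell genes 9 were higher at P7 (median 0.09) and 4 above without overlap (7.74% of all genes). Il2rb, a receptor chain for interleukins on NK and T cells, was at 129, 82 and 85 and then 133, 242 and 152 (0.81), with P7 scrambled replicate 2 the highest. Macrophage genes had a median of 0.03 with 12 of 22 higher. Cd163, a hemoglobin scavenger receptor of Kupffer cells, was at 142, 89 and 114 at P5 and 265, 225 and 174 at P7, a log2 difference of 0.94 (SE 0.23) with an adjusted p of 0.0696 in limma. Ly6c2, a monocyte gene in that list, had -0.59 and overlapped. The summed level of the macrophage list was 12623 to 13229 scaled counts at P5 and 13634 to 13795 at P7.

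**Figure D2:**
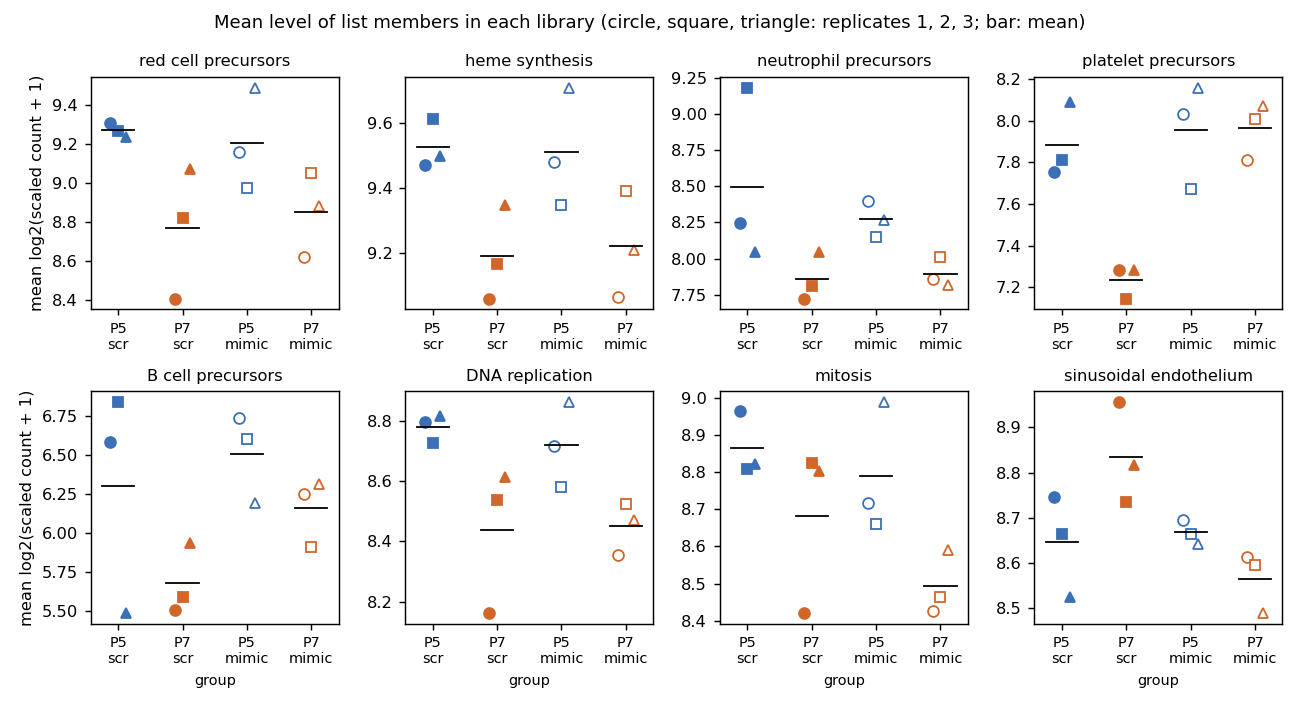
Mean log2(scaled count + 1) over the members of 8 gene lists in each liver, with filled symbols for scrambled and open symbols for mimic livers, P5 in blue and P7 in orange, circles, squares and triangles for replicates 1, 2 and 3, and a bar at the group mean. Platelet genes separate the scrambled days (7.76 to 8.09 against 7.14 to 7.28) and not the mimic days, while the red cell and DNA replication lists are lower at P7 under both treatments, with overlap in the mimic red cell values.

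Genes that copy DNA were lower at P7 as well. All 40 tested genes of DNA replication had a log2 difference below 0, with a median of -0.36, and in 21 the days did not overlap (9.69% of all genes). An unadjusted p under 0.05 was found for 23 of them on that side (11.8% of all genes). The mean log2 level of the list was 8.79, 8.73 and 8.81 at P5 and 8.16, 8.54 and 8.61 at P7. With the mean level of the red cell list as a covariate the median was -0.22, and without P7 replicates 2 and 3 it was -0.61. Blood precursors and hepatocytes both divide at this age, and in bulk tissue their transcripts cannot be told apart.

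The E2F factors switch on replication genes at the start of S phase. The words TTTCCCGC, TTTGGCGC, TTTCGCGC and TTTGCCGC, searched on both strands, stood in 15 of 41 promoter windows of 33 genes of this list (36.6%), against 507 of 13648 windows of the genes tested (3.71%). The 2 list genes with the smallest p that hold such a word, printed with it in capitals, are Mcm7 at chr5:138171834-138172133 on the minus strand and E2f2 at chr4:136172024-136172323 on the plus strand, from the same RefSeq windows.
Mcm7: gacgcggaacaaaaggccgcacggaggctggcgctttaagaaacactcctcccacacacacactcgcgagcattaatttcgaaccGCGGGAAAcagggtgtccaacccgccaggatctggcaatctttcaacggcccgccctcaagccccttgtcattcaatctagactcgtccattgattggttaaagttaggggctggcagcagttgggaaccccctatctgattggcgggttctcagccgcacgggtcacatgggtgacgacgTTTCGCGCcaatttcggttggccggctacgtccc
E2f2: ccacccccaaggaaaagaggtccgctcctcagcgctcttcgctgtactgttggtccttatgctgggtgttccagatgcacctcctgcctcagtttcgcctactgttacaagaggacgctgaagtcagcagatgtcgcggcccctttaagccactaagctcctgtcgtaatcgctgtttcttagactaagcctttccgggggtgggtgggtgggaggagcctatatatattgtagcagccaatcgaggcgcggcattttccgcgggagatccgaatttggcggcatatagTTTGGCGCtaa

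Mcm7, a subunit of the replicative helicase, had a log2 difference of -0.38 (SE 0.12), and E2f2, itself an E2F factor, one of -0.52 (SE 0.19). Rfc4, part of the clamp loader (chromosome 16, 23113943 to 23127737), was at 277, 271 and 342 scaled counts at P5 and 172, 197 and 210 at P7, a log2 difference of -0.61 (SE 0.14) with an adjusted p of 0.0641 in limma. Rrm2, which makes deoxynucleotides, was at 851, 987 and 931 and then 578, 674 and 782 (-0.45). Gins1 of the helicase complex was at 164, 177 and 234 and then 131, 130 and 129 (-0.54). Without P5 scrambled replicate 1, 11 of the 40 genes fell past the limma threshold (7.82% of all genes) and 0 rose. In the mimic livers 3 fell (3.37% of all genes).

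Genes of mitosis leaned the same way by less. Of 35 genes 34 were lower, with a median of -0.19, and 9 did not overlap (9.69% of all genes). Without P5 scrambled replicate 1 the count of lower genes was 22 and the median -0.15, and without P7 replicates 2 and 3 the median was -0.44. The mean log2 level of the list was 8.96, 8.81 and 8.82 at P5 and 8.42, 8.82 and 8.80 at P7, so P7 replicates 2 and 3 were close to the P5 livers and replicate 1 far below. Nusap1 of the spindle was at 716, 671 and 709 and then 445, 554 and 603, a log2 difference of -0.40 (SE 0.10). Survivin, Birc5, was at 399, 476 and 439 and then 307, 345 and 355 (-0.38). In the mimic livers 10 of the 35 fell (3.37% of all genes). The list of CDK inhibitors and p53 targets was mixed, with 12 of 20 lower and a median of -0.12. In it Cdkn2d and Cdkn2c had -0.73 and -0.38, while the p53 target Zmat3 had 0.51, at 126, 85 and 120 and then 163, 155 and 148. Cyclin D1, Ccnd1, had 0.31, at 850, 781 and 804 and then 1063, 994 and 954.

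Transcription factors that repress fetal genes or drive hepatocyte maturation were mostly higher at P7. Of 17 genes 15 were higher, with a median of 0.24, and 8 lay above without overlap (7.74% of all genes). Zbtb20, the repressor of Afp (chromosome 16, 42907652 to 43642602), was at 234, 192 and 146 scaled counts at P5 and 292, 413 and 290 at P7. The 290 is from P7 replicate 3, with its background of 3.08 scaled counts per kb, and the longest Zbtb20 transcript has 26901 bases. Whether the days stay apart for Zbtb20 and other list members with that background subtracted was not tested. The log2 difference of Zbtb20 was 0.80 (SE 0.19), with an adjusted p of 0.0696 in limma, and 1.04 in the mimic livers, where it rose. The hepatocyte factor gene Prox1 was at 828, 694 and 595 and then 958, 1302 and 852 (0.54), and Zhx2, a repressor of Afp and H19, at 98, 71 and 49 and then 102, 120 and 101 (0.61). Without P5 scrambled replicate 1, 8 of the 17 rose past the threshold (8.78% of all genes), and in the mimic livers 5 did (6.67% of all genes). Fetal and growth genes, some of which these factors are known to repress, had no common direction: the 28 tested had a median of -0.03, with 15 lower and 13 higher.

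With the trend of values with transcript length removed in each library, Zbtb20 went from 0.80 to 0.10 and the median of its list from 0.24 to 0.16. In that fit 16 of the 17 genes were higher, against 15 as deposited. The longest transcript of Zbtb20 has 26901 bases, and with the slope with length as a covariate Zbtb20 had 0.30. With the trend removed, other members had 0.32 against 0.54 as deposited (Prox1), 0.42 against 0.45 (Foxa1) and 0.52 against 0.61 (Zhx2).

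Bile acid synthesis and transport leaned higher. Of 29 tested genes 21 were higher with a median of 0.15, and 9 had an unadjusted p under 0.05 on that side (11.3% of all genes). Cyp7a1, the rate-limiting enzyme of bile acid synthesis (chromosome 4, 6265612 to 6275631), was at 359, 323 and 265 at P5 and 504, 683 and 590 at P7. The groups had 316 ± 47.4 and 592 ± 89.5 (SD, n = 3 each) and did not overlap. In limma the log2 difference was 0.91 (SE 0.25) and the adjusted p 0.0881. The canalicular exporter gene Abcc2 was at 1748, 1329 and 1198 and then 1847, 2048 and 1684, which overlap, and the uptake carrier gene Slco2b1 at 25, 35 and 37 and then 46, 67 and 65, a log2 difference of 0.86. Slco2b1 rose by 1.55 in the mimic livers, where 9 of the 29 genes passed (6.67% of all genes).

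Other metabolic programmes were near the median of all genes. The 40 tested cytochrome P450 genes had a median of 0.01, with 1 above without overlap, Cyp7a1 (7.74% of all genes), and 0 below (9.69%). The urea cycle list had 6 of 12 genes higher and 0 with an unadjusted p under 0.05 in either direction. Fatty acid oxidation genes had a median of 0.02. Among them Ppara, the fasting and fat-burning receptor, was at 471, 302 and 251 at P5 and 559, 694 and 434 at P7, which overlap. Its log2 difference was 0.74 (SE 0.20), or 0.24 with the slope with length as a covariate. The Ppara target Cpt1a was at 1835, 1608 and 1367 and then 1962, 2023 and 1943 (0.31, SE 0.10). Cholesterol synthesis leaned lower, with 21 of 26 below 0 and a median of -0.20. Insig1, which holds back sterol synthesis, was at 499, 583 and 577 and then 359, 398 and 388 (-0.53, SE 0.18), while in the mimic livers it had 0.14.

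Clock genes and pericentral genes of the liver lobule leaned higher. Per3, a negative arm of the clock, was at 235, 140 and 75 scaled counts at P5 and 308, 263 and 218 at P7 (0.94, SE 0.28), and Per2 at 209, 196 and 159 and then 292, 309 and 236 (0.57). The median of the 20 clock genes was 0.16, and 6 of them had an unadjusted p under 0.05 on the higher side (11.3% of all genes). The hour of tissue collection is not given in the labels. Of 20 Wnt targets and pericentral genes 14 were higher, with a median of 0.17 and 7 above without overlap (7.74% of all genes). Ahr, the dioxin receptor, was at 421, 429 and 393 and then 540, 727 and 521 (0.51, SE 0.13), the Wnt receptor gene Lgr5 at 63, 76 and 97 and then 108, 114 and 117 (0.54), and the factor gene Tbx3 at 200, 127 and 95 and then 269, 253 and 219 (0.87).

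Endothelial genes were higher in the scrambled livers, with 17 of 22 genes above 0, a median of 0.18 and 7 without overlap (7.74% of all genes). Tek, the angiopoietin receptor, was at 383, 299 and 293 and then 445, 426 and 456 (0.45, SE 0.12), and Cdh5, the cadherin of endothelial junctions, at 854, 670 and 626 and then 905, 919 and 908 (0.36, SE 0.11). Without P7 replicates 2 and 3 the median was 0.33, and with the trend with length removed 0.08. In the mimic livers the median was -0.06, with Tek at 0.02. Stellate cell and fibroblast genes had a median of 0.22, or 0.36 without P5 scrambled replicate 1 and 0.34 without P7 replicates 2 and 3, with 1 of 23 above without overlap (7.74% of all genes) and 2 below (9.69%), and the mean log2 level of P5 scrambled replicate 1, at 8.92, was within the P7 range of 8.73 to 8.99. Reln of stellate cells was at 1755, 1100 and 932 and then 1669, 1888 and 1806. Bile duct genes were mixed, with 5 of 12 higher.

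**Figure D3:**
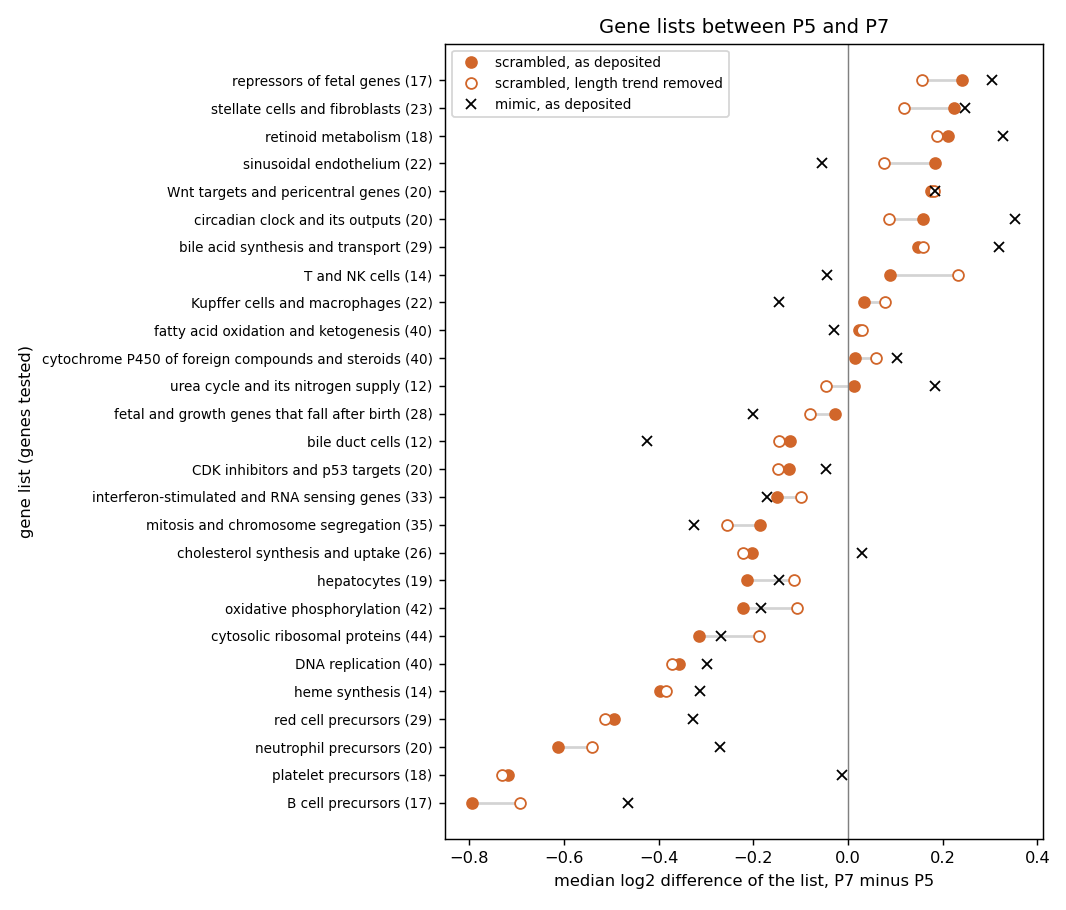
Median log2 difference (P7 minus P5) of the tested members of 27 gene lists, with the number tested in brackets: filled circles for scrambled livers as deposited, open circles with the trend with transcript length removed, and crosses for mimic livers. The 5 lists of blood cell precursors and heme synthesis lie at the lower end in scrambled livers, from -0.79 for B cell precursors to -0.40 for heme synthesis, and the platelet list has its cross near 0.

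Short and long transcripts parted between the days across the whole table. With genes split into 5 equal bins by their longest transcript, the shortest bin (57 to 1874 bases) had a median log2 difference of -0.20 and the longest (5180 to 123179 bases) one of 0.21. In the shortest bin 61 genes lay above (2.16%) and 475 below (16.8%) without overlap, and in the longest 379 (13.4%) and 73 (2.59%). Over all genes these shares were 7.74% above and 9.69% below. Spearman's rho between length and the log2 difference was 0.44 over 14096 genes, which share the 6 libraries and are not replicates. For each library, the deviation of a gene's log2 level from the gene's mean over the 18 libraries was also ranked against length. This rank correlation was 0.197, -0.352 and -0.267 at P5 and 0.144, 0.433 and 0.211 at P7. By it P5 scrambled replicate 1 was on the side of the P7 livers.

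Gene lists of short transcripts moved with that trend. The 44 cytosolic ribosomal protein genes (median transcript 1124 bases) were all lower at P7, with a median of -0.32. Rps20 was at 303, 427 and 400 scaled counts at P5 and 306, 253 and 290 at P7, which overlap. The 42 genes of oxidative phosphorylation had a median of -0.22 with 41 lower. With the slope with length as a covariate these medians were 0.003 and 0.03. In the same fit the median of red cell precursors was -0.58 against -0.49 as deposited, and that of B cell precursors -0.94 against -0.79. Those of platelet precursors (-0.53 against -0.72), neutrophil precursors (-0.44 against -0.61), heme synthesis (-0.26 against -0.40) and DNA replication (-0.28 against -0.36) were smaller in size, and mitosis had -0.26 against -0.19. The covariate brought stellate cell genes from 0.22 to 0.03, cholesterol synthesis from -0.20 to -0.05, clock genes from 0.16 to 0.08 and repressors of fetal genes from 0.24 to 0.13, while Wnt targets went from 0.17 to 0.28 and fatty acid oxidation from 0.02 to 0.11. With the length trend removed per library 3 genes (0.0213%) fell past the limma threshold, Dedd2, Smim1 and D1Ertd622e, and 0 rose. D1Ertd622e, with a transcript of 40378 bases, was at 423, 425 and 491 scaled counts at P5 and 342, 336 and 425 at P7 as deposited. These overlap, and its log2 difference of -0.28 became -1.20 only through the removal of the trend.

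**Figure D4:**
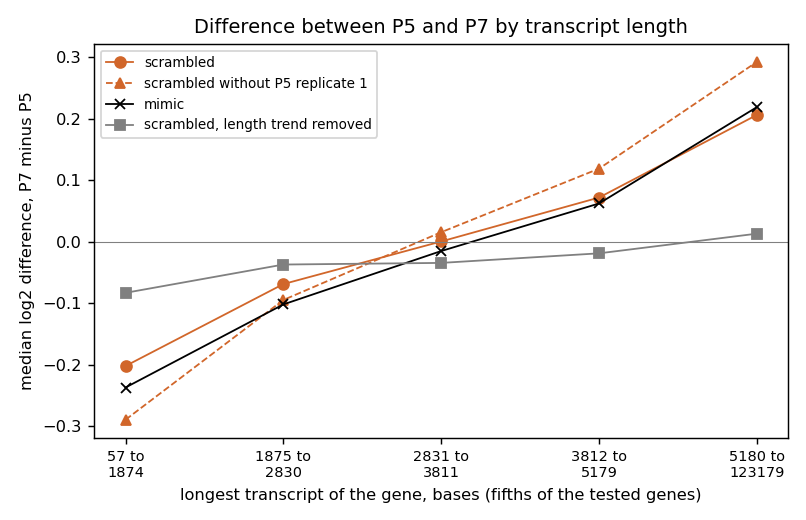
Median log2 difference (P7 minus P5) of tested genes in 5 equal bins of the longest transcript (bases), for scrambled livers, scrambled livers without P5 replicate 1, mimic livers, and scrambled livers after removing the trend with length. The scrambled line climbs from -0.20 in the shortest to 0.21 in the longest bin, the mimic line from -0.24 to 0.22, and the corrected line from -0.08 to 0.01. The corrected line is flatter by construction, since the trend with length was subtracted in each library.

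The mimic livers of P5 and P7 share no library with the scrambled ones, and in them 941 genes rose (6.67%) and 475 fell (3.37%), 10.0% of those tested, in limma with Benjamini-Hochberg adjustment. That count of 1416 was 250 without P5 mimic replicate 1, 35 without P5 mimic replicate 3, 40 without P7 mimic replicate 1 and 174 without P7 mimic replicate 3, and 1 with the slope with length as a covariate. Of the 941, 897 (95.3%) were higher at P7 in the scrambled livers too, where 49.4% of all genes were, with a median scrambled log2 difference of 0.30 against 0.59 in the mimic livers. Of the 475, 430 (90.5%) were lower in scrambled livers, where 50.6% of all genes were, with medians of -0.30 and -0.52. After removing the trend with length the shares were 87.4% of 484, where 44.1% of all genes were higher, and 88.7% of 247, where 55.9% were lower. The difference between the treatments passed in 0 genes (0.0%), with 864 at an unadjusted p under 0.05 (6.13%) and a smallest adjusted p of 0.465, so the days were not shown to differ more under one treatment. The median SD of a gene among the 3 livers was 0.21 on the log2 scale for P5 scrambled and 0.16 for P7 scrambled, against 0.14 for both mimic groups. The mimic livers received a different oligonucleotide, and what it adds to their difference between days was not tested here.

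Placed on a line from the mean of the P5 mimic livers, at 0, to the mean of the P7 mimic livers, at 1, the scrambled P5 livers lay at 0.382, 0.124 and -0.0271 and the P7 livers at 0.550, 0.789 and 0.396. Every P7 liver lay beyond every P5 liver, with P5 replicate 1 and P7 replicate 3 next to each other. With the trend with length removed P5 replicate 1, at 0.331, passed P7 replicate 3, at 0.325.

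**Figure D5:**
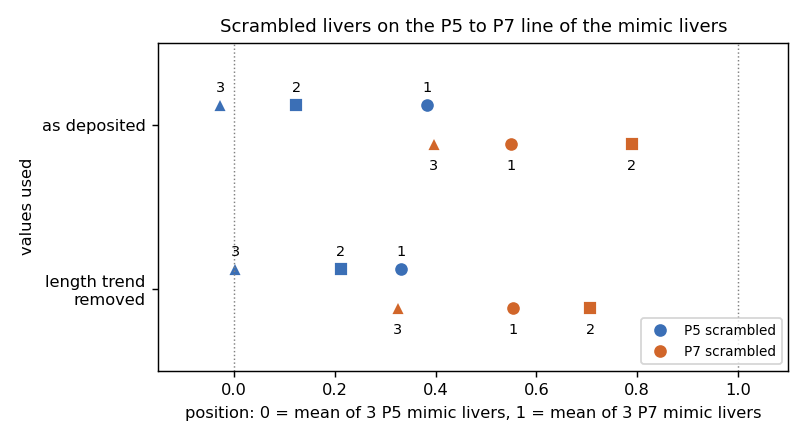
Position of each scrambled liver on the line from the mean of 3 P5 mimic livers (0) to the mean of 3 P7 mimic livers (1) over the genes tested, as deposited and with the trend with transcript length removed, P5 in blue and P7 in orange, numbers marking replicates. As deposited, P5 lies between -0.0271 and 0.382 and P7 between 0.396 and 0.789.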

How the data were processed

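RNA of 18 livers was sequenced, 3 per group of day and mimic. Per the submitters' processing notes, the tools were STAR 2.6.1d and Trimmomatic 0.39, with featureCounts 1.6.5, DESeq2 1.26.0 and Picard 2.21.7, on mm10 (GRCm38). Their treatment of read duplicates was not given in the sources used here. The values are a score: whole numbers that the authors deposited, judged from the table to be counts divided by size factors and rounded, so no count model was run. The values were scaled alike, with recomputed size factors of 1.01 in every library. Groups came from the sample titles.

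Genes reaching a mean of 10 across all 18 libraries entered limma 3.58.1 (R 4.3.3) as log2(value + 1), with 6 group means, a mean-variance trend and Benjamini-Hochberg adjustment at 0.05. All 18 libraries entered, which pools the spread over groups. Differences of low genes are understated by the added 1. The fit was also run on simulated counts without a length trend, background or outlying library, which does not show how it performs on these livers. Transcript length is that of a gene's longest transcript in GENCODE M21 (31108 IDs found). The trend removed per library was a natural spline in log length, fitted to deviations from each gene's mean over the 18 libraries. The slope with length used as a covariate is the rank correlation of such deviations with length. Named genes are the 10 of smallest p in each direction with a mean of 50 or more and no overlap between the days, up to 5 of smallest p in each list described, and Afp, Alb, H19, Igf2 and Ttn. Mcm7, E2f2, D1Ertd622e and the muscle and sex-linked genes that describe single libraries were added with their values known. The members, 45 gene lists and tests were chosen with earlier results of these data known, and the 28 lists described were picked after their values were seen.

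Alternatives were another pseudocount, filter, scaling, threshold or set of libraries in the fit, no mean-variance trend, a replicate block, covariates for red cell genes and for the slope with length, and the omission of each library in turn. Subtracting background, weighting libraries, leaving out 2 P7 libraries and removing the trend with length were added after seeing the data. Python 3.11.15 drew the figures.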

Additional observations from a re-analysis of the deposited data

Results flagged for a closer look

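Acot2, a mitochondrial acyl-CoA thioesterase, went opposite ways between P5 and P7 in the 2 treatments. It was at 100, 68 and 88 scaled counts at P5 and 148, 124 and 109 at P7 in scrambled livers, a log2 difference of 0.575. In mimic livers it was at 102, 106 and 100 and then 91, 76 and 75, a difference of -0.349. In neither treatment did the days overlap. The difference between treatments did not pass in limma, with a p of 0.00113 that became 0.465 after Benjamini-Hochberg adjustment. Groups of 3 livers are too small for the search for single livers far from the rest.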

How the results depend on the processing

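In scrambled livers 0 genes passed, and the count was 9 with a pseudocount of 5, 113 with quantile normalization (73 higher and 40 lower), 3 with the trend with length removed and 17 without P7 replicates 2 and 3. With 1 library left out in turn it ran from 0 to 2342: 2342 without P5 scrambled replicate 1, 2 without P5 replicate 2, 8 without P7 replicate 1, 7 without P7 replicate 2 and 0 without P5 or P7 replicate 3. For mimic livers 1416 genes passed, against 715 with no filter, 2653 with only the 6 libraries compared, 862 with no mean-variance trend, 546 with the red cell covariate, 6859 with library weights, 731 with the length trend removed, 108 at an adjusted p of 0.01 and 1 with the length covariate. Leaving out 1 library gave 35 (without P5 mimic replicate 3) to 2044 (without P7 mimic replicate 2). Scaled by TMM, 1172 genes rose and 282 fell there, against 941 and 475. The difference between treatments had 0 genes, 14 without P7 scrambled replicates 2 and 3, and 0 to 5 with 1 library left out. The causes of these shifts were not tested.

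Replicate numbers are shared between groups, but same-numbered scrambled livers deviated together with correlations of -0.166, -0.0122 and 0.109, so the numbers were not taken as pairs. With a replicate block 0 genes passed in scrambled livers, 1303 in mimic livers and 0 for the difference, and the block with the length covariate gave 12 in mimic livers.

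Of 158 named genes, 148 kept their direction in every fit. With the length covariate, and then with the block added, the log2 difference turned positive for H19 (0.075, 0.07), Alb (0.065, 0.06), Igf2 (0.116, 0.109), Afp (0.098, 0.088), Asgr1 (0.08, 0.08), Ambp (0.064, 0.06), Serpina1b (0.073, 0.07), Cyp2d10 (0.053, 0.053), Ass1 (0.014, 0.006) and Otc (0.039, 0.039). With 1 library left out Igf2 ran from -0.172 (without P5 scrambled replicate 1) to 0.071 (without P5 scrambled replicate 2), and Otc from -0.248 to 0.004 in the same fits. Raw reads per library were not used, so no counting interval was computed.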
